A study of Homo sapiens with 6 samples.

Results

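Chromosome 19 carries the densest collection of zinc finger genes in the human genome, and 247 of the 62700 genes in the deposited count table belonged to it. They were taken as the protein-coding genes on chromosome 19 of GRCh38 (positions from GENCODE 29) whose symbol is ZNF followed by a number and at most a letter. The RNA came from KYSE510, an established squamous cell carcinoma line of the oesophagus, cultured with serum. The 3 libraries called shControl came from cells with a control shRNA, which the labels give the genotype WT, and the 3 called shRNH1 from cells with an shRNA against the ribonuclease that the labels name RNH1. The knockdown was made as a model of induced R-loops, stretches of RNA:DNA hybrid beside a displaced single DNA strand. The labels call the libraries biological replicates but do not say how cultures were separated, how many shRNA sequences were used or whether the cells were a clone, and the p-values cover the spread among these libraries only.

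A C2H2 zinc finger is a small fold held by a zinc ion between a pair of cysteines and a pair of histidines, and a row of such fingers reads a DNA sequence. Most ZNF genes of chromosome 19 arose by tandem duplication and still lie in clusters of related neighbours. Many encode a KRAB domain near the N terminus, which recruits the corepressor TRIM28 and through it the histone methyltransferase SETDB1 and heterochromatin proteins. KRAB zinc finger proteins are best known for silencing transposable elements. The bodies of these genes are themselves packed in heterochromatin in many cell types.

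RNASEH1, the gene of the enzyme that cleaves RNA in RNA:DNA hybrids, was lower in shRNH1, while the gene whose approved symbol is RNH1, the ribonuclease inhibitor, overlapped between groups. RNASEH1 measured 34.9, 32.5 and 27.5 CPM (counts scaled to library size and by TMM) in shControl and 7.40, 7.03 and 7.03 in shRNH1. Its log2 fold change was -2.14 (SE 0.116; edgeR adjusted p = 1.61e-13), and the exact two-sided permutation p of 0.1 was the smallest that 3 against 3 allows. RNH1 measured 516, 467 and 655 CPM against 441, 529 and 463, a log2 fold change of -0.19 (edgeR adjusted p = 0.221; exact permutation p = 0.4). Library totals ran from 40225486 to 41103220 counts in shControl and from 31394687 to 33421217 in shRNH1. All 12 squamous markers were tested, and 6 were higher (SOX2, PERP, TRIM29, KRT16, JUP and DSC3) and 4 lower (SFN, KRT6A, KRT5 and KRT14), with summed CPM of 1946 to 2313 and 2230 to 2334. The summed CPM of the 10 leukocyte markers was 6.01 to 7.60 and 8.12 to 10.3, that of the 8 fibroblast markers 63.2 to 72.7 and 112 to 134, and that of the 6 endothelial markers 21.8 to 24.3 and 21.3 to 22.6. Of these, ITGAM, COL1A1 and PECAM1 were higher and PDGFRB lower. MS4A1, COL1A2, DCN and KDR were listed at 0 in all 6 libraries, and the part of other cells in the results below was not tested.

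The tested ZNF genes of chromosome 19 were, as a group, slightly higher in shRNH1. Counts allowed a test for 166 of the 247, and 32 of them (19.3%) were higher and 4 (2.41%) lower at an edgeR adjusted p under 0.05, while 130 did not pass. Over all 19682 genes tested, 27.6% passed, 15.3% higher and 12.3% lower, so a smaller share of the ZNF genes was called than of genes at large, and the calls leaned to one side. A higher fitted level in shRNH1 was found for 127 of the 166 (76.5%), against 51.7% of all genes tested. Their median log2 fold change was 0.22, with quartiles of 0.024 and 0.49, beside a median of 0.016 over all genes tested. Groups did not overlap in CPM for 56 of the 166 (33.7%), 46 of them higher in shRNH1, against 40.0% of all genes tested, 21.4% higher and 18.6% lower. With library size alone in place of TMM, the median of all genes moved up to 0.13, with 4065 genes higher and 1433 lower (73.9% higher against 55.4%). The ZNF genes then counted 47 higher and 3 lower, and their median stood 0.20 above that of all genes under both scalings. In bulk RNA, fewer cells with a transcript and less of it per cell cannot be told apart.

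**Figure D1:**
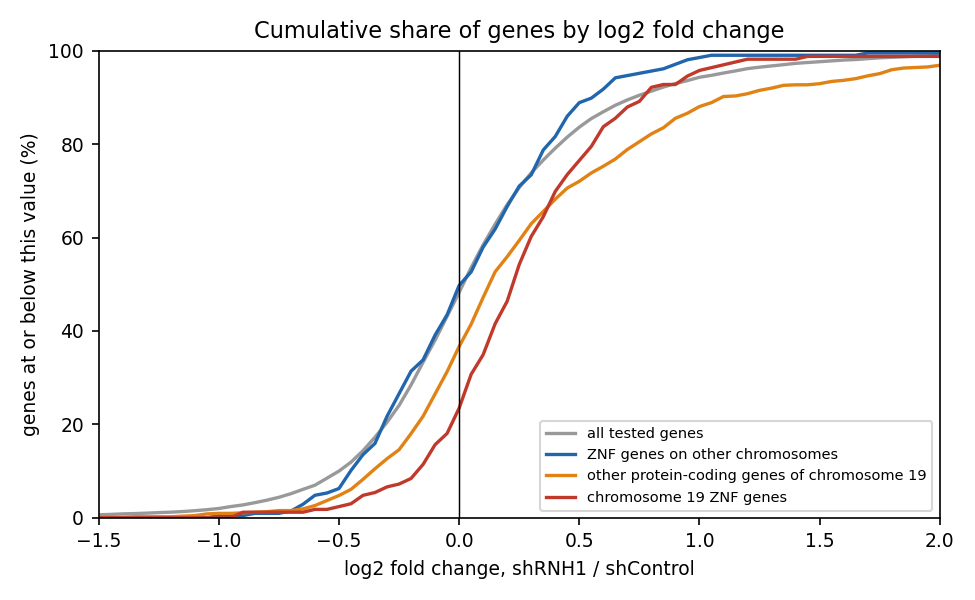
Cumulative share of genes (y axis, percent) at or below each log2 fold change of shRNH1 over shControl (x axis), for all 19682 genes tested, 207 ZNF genes on other chromosomes, 837 other protein-coding genes of chromosome 19 and the 166 tested ZNF genes of chromosome 19. The curve of the chromosome 19 ZNF genes lies to the right of the curve of all genes around 0, with medians of 0.22 and 0.016.

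ZNF genes elsewhere in the genome gave other counts. Of the 262 on other chromosomes, 207 were tested, 34 were higher and 38 lower (34.8% called, 16.4% higher and 18.4% lower), and the median log2 fold change was 0.00017. The other protein-coding genes of chromosome 19 were also more often higher, with 259 higher and 85 lower of 837 tested (41.1% called, 30.9% higher and 10.2% lower) and a median of 0.13. Both sets of genes on chromosome 19 thus leaned upward, and no test was made of the difference between the sets.

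The members of the family were weakly expressed. They took 0.185% to 0.194% of the counts of a shControl library and 0.201% to 0.222% of a shRNH1 library. These are shares of raw counts without TMM, a scaling under which the median log2 fold change of all genes was also up, at 0.13. The median tested member had 3.98, 3.93 and 3.64 CPM in the shControl libraries and 4.28, 4.57 and 4.70 CPM in the shRNH1 libraries, which did not overlap. Of the 81 genes not tested, 51 were listed at 0 in all 6 libraries, and none of the 81 had more than 46 counts in all. The sources used here do not say whether counting left some of these genes out, and they are reported only as listed at 0. The filter on low counts was passed through both groups by 152 genes, of which 28 were higher and 4 lower with a median of 0.20. It was passed through shRNH1 alone by 10 genes, a selection that favours higher values there. Of these, 4 (ZNF555, ZNF726, ZNF585B and ZNF221) were among the 32 calls.

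**Figure D2:**
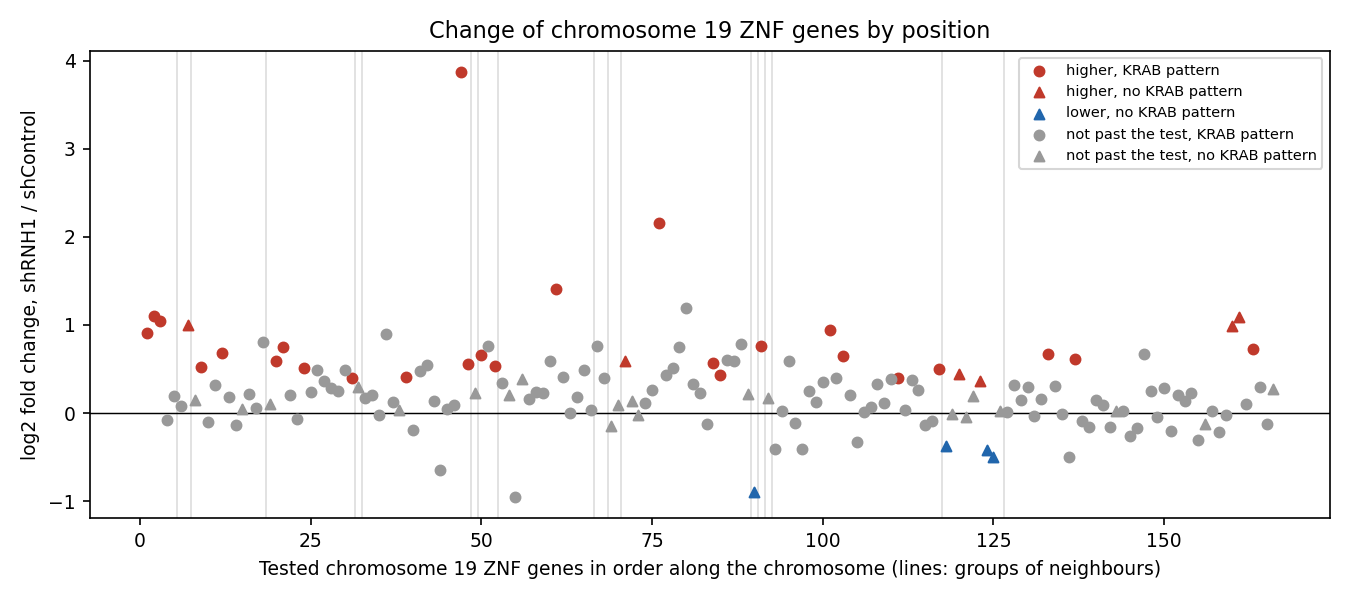
Log2 fold change of shRNH1 over shControl (y axis) for the 166 tested ZNF genes in order along chromosome 19 (x axis, rank), with grey lines between groups of neighbours; circles carry a KRAB pattern, triangles none, and colour gives the edgeR call. The 32 rises are spread over the chromosome, and 3 of the 4 falls, all triangles, stand together toward the right, in the group of neighbours before the last.

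Near the end of the short arm, 5 KRAB genes lie between 2.82 and 2.94 Mb and 3 of them rose (60%, beside 15.3% of all genes tested). Of these, ZNF555 passed the filter on low counts through shRNH1 alone. ZNF554 (ENSG00000172006; chr19:2819874-2835773, plus strand) measured 3.06, 3.00 and 3.26 CPM in shControl and 6.58, 5.35 and 5.55 CPM in shRNH1. ZNF556 (ENSG00000172000; chr19:2867335-2883445, plus strand) measured 0.950, 0.895 and 1.25 CPM against 2.48, 1.91 and 2.00 CPM. ZNF555 lies between them and measured 0.539, 0.943 and 0.244 CPM against 1.77, 1.03 and 0.970 CPM. In all 3 genes the lowest shRNH1 library stood above the highest shControl library, which was a condition for naming ZNF554 and ZNF556. The log2 fold changes were 0.91 for ZNF554 (SE 0.164; edgeR adjusted p = 1.21e-04), 1.05 for ZNF556 (SE 0.262; edgeR adjusted p = 0.00336) and 1.10 for ZNF555 (SE 0.391; edgeR adjusted p = 0.0358). The remaining genes of the cluster overlapped between groups, at -0.07 for ZNF57 (edgeR adjusted p = 0.911) and 0.19 for ZNF77 (edgeR adjusted p = 0.535). ZNF555 lost its call without shControl replicate 1 (1.05, edgeR adjusted p = 0.0781), shControl replicate 3 (0.75, 0.138) or shRNH1 replicate 1 (0.78, 0.269), and with DESeq2 (1.10, adjusted p = 0.0756). ZNF555, ZNF57 and ZNF77 are named because they complete this cluster and were chosen after their values had been seen.

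The promoters of these 5 neighbours are shown because all of them repeat the same short box, CCAAT, a common promoter element, and those of ZNF296 and ZNF787, which fell, are shown beside them. Each is 250 bases before to 50 bases after the first start listed by RefSeq on GRCh38.p14, written 5′ to 3′ on the gene's strand, with every CCAAT, or ATTGG on the other strand, in capitals. The windows are chr19:2819618-2819917 (plus strand) for ZNF554, chr19:2841225-2841524 (plus) for ZNF555, chr19:2867085-2867384 (plus) for ZNF556, chr19:2900678-2900977 (plus) for ZNF57 and chr19:2944922-2945221 (minus) for ZNF77. Those of the falls are chr19:45076429-45076728 (minus) for ZNF296 and chr19:56121246-56121545 (minus) for ZNF787.
ZNF554: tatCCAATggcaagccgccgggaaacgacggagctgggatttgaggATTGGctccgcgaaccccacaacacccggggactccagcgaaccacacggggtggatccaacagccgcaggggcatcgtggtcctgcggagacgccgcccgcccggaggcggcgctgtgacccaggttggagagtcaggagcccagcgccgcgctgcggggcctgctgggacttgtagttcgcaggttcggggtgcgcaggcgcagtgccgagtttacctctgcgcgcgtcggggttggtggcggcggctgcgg
ZNF555: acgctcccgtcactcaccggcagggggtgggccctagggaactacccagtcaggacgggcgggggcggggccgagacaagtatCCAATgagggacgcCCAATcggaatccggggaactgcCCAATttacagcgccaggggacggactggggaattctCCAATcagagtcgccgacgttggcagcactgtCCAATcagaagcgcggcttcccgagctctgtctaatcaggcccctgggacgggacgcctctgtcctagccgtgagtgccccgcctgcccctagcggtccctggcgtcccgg
ZNF556: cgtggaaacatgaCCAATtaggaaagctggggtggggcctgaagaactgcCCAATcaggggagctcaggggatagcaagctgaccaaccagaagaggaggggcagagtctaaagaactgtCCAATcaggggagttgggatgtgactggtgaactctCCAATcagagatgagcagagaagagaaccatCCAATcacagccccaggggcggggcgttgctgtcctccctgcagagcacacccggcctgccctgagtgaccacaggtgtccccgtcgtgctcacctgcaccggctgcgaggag
ZNF57: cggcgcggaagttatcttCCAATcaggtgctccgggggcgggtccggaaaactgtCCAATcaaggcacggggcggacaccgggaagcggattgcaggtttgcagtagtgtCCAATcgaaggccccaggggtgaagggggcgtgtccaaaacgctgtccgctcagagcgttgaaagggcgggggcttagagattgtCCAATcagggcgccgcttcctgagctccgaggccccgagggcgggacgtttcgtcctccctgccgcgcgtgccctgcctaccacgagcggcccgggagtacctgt
ZNF77: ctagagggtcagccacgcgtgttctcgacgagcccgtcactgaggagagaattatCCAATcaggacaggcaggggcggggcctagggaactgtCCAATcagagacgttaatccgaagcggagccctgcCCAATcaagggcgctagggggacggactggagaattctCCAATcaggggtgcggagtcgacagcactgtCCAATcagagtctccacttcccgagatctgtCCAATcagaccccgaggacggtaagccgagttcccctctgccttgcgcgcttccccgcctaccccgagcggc
ZNF296: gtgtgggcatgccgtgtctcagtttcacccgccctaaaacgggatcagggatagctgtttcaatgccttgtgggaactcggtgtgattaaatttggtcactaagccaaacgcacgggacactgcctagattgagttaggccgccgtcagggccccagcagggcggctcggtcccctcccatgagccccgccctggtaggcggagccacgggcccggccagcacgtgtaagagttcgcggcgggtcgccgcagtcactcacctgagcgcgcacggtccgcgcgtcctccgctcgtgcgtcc
ZNF787: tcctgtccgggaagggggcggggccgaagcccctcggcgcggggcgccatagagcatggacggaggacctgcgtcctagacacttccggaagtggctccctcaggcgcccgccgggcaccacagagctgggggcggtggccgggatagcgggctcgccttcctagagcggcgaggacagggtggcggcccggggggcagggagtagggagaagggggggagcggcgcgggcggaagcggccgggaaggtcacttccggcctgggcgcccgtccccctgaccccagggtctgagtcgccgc

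The box occurred 2, 5 and 5 times in ZNF554, ZNF555 and ZNF556, which rose, but also 4 and 6 times in ZNF57 and ZNF77, which did not pass the test. ZNF296 and ZNF787 had 0. Across all 27305 RefSeq promoters of this length, 35.7% held the box and 3.42% held it at least 3 times. These were not filtered by gene type, while the ZNF genes are all protein-coding. Among the 216 ZNF genes of chromosome 19 with a RefSeq promoter, 53.7% held it and 4.63% held it at least 3 times. By call, 19 of 28 promoters of higher genes (67.9%), 1 of 4 of lower genes (25%) and 62 of 119 of genes not past the test (52.1%) held it. The motif was chosen after these promoters had been printed, so the counts are a description, and a match is not a bound site. CpG dinucleotides were frequent, with a median of 20 in the ZNF windows against 14 over all RefSeq promoters, again not filtered by gene type. ZNF556 with 8 had the fewest of the 7 shown.

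Among genes with a mean of at least 1 CPM, the largest rise was in ZNF837, which has 8 fingers and no KRAB pattern, near the end of the long arm (ENSG00000152475; chr19:58367618-58381060, minus strand). It measured 2.34, 1.91 and 3.69 CPM in shControl and 5.51, 6.41 and 4.94 CPM in shRNH1, with the third shControl library the nearest to shRNH1. The log2 fold change was 1.09 (SE 0.202; edgeR adjusted p = 1.63e-04). Its neighbour ZNF497 (ENSG00000174586; chr19:58354357-58362848, minus strand) measured 1.93, 1.89 and 1.71 CPM against 3.18, 5.10 and 2.70 CPM, a log2 fold change of 0.99 (SE 0.227; edgeR adjusted p = 0.00151). Exons of ZNF497 overlap 4 other genes, among them the antisense genes ZNF497-AS1 and A1BG-AS1, and the sources used here do not state strand use in counting, which makes its reads uncertain.

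ZNF358 (ENSG00000198816; chr19:7515292-7521026, plus strand), with 9 fingers and no KRAB pattern, gave the smallest p of the 32 rises. It measured 23.0, 23.3 and 31.3 CPM in shControl and 48.3, 56.1 and 50.6 CPM in shRNH1, so that its level was 2.00-fold that of shControl (95% interval 1.72 to 2.33; log2 fold change 1.00, SE 0.112; edgeR adjusted p = 1.26e-07). The groups stood far apart, although the third shControl library was the highest of its group. It was also the most abundant of the 8 named rises per length of exon, with 18.7 CPM per kilobase over the 6 libraries. Exons of 2 unnamed genes overlap it over 711 bases.

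The remaining named rises were KRAB genes at low levels. ZNF808 (ENSG00000198482; chr19:52527652-52564464, plus strand), a KRAB protein needed for human pancreas development, measured 0.745, 0.895 and 0.733 CPM against 1.80, 1.48 and 1.30 CPM. Its log2 fold change was 0.94 (SE 0.294; edgeR adjusted p = 0.0169), and its exons overlap those of ZNF701. The call was lost without shControl replicate 1 (0.90, edgeR adjusted p = 0.0548) and without shRNH1 replicate 1 (0.81, edgeR adjusted p = 0.0935). ZNF823 measured 1.23, 1.79 and 1.33 CPM against 2.45, 2.73 and 2.18 CPM (log2 fold change 0.75, SE 0.237; edgeR adjusted p = 0.0177). The groups did not overlap in either gene, which was a condition for naming them as rises. ZNF823 lost its call without shControl replicate 1 (edgeR adjusted p = 0.0778), shRNH1 replicate 1 (0.0540) or shRNH1 replicate 2 (0.0588), and with an offset for expression level (0.0506). ZNF114, with 3 fingers, measured 1.23, 0.847 and 0.787 CPM against 1.83, 1.51 and 1.52 CPM (0.76, SE 0.285; edgeR adjusted p = 0.0492) and did not pass in 10 of 18 alternatives, including each library left out except shControl replicate 1 (edgeR adjusted p = 0.0595 to 0.170).

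**Figure D3:**
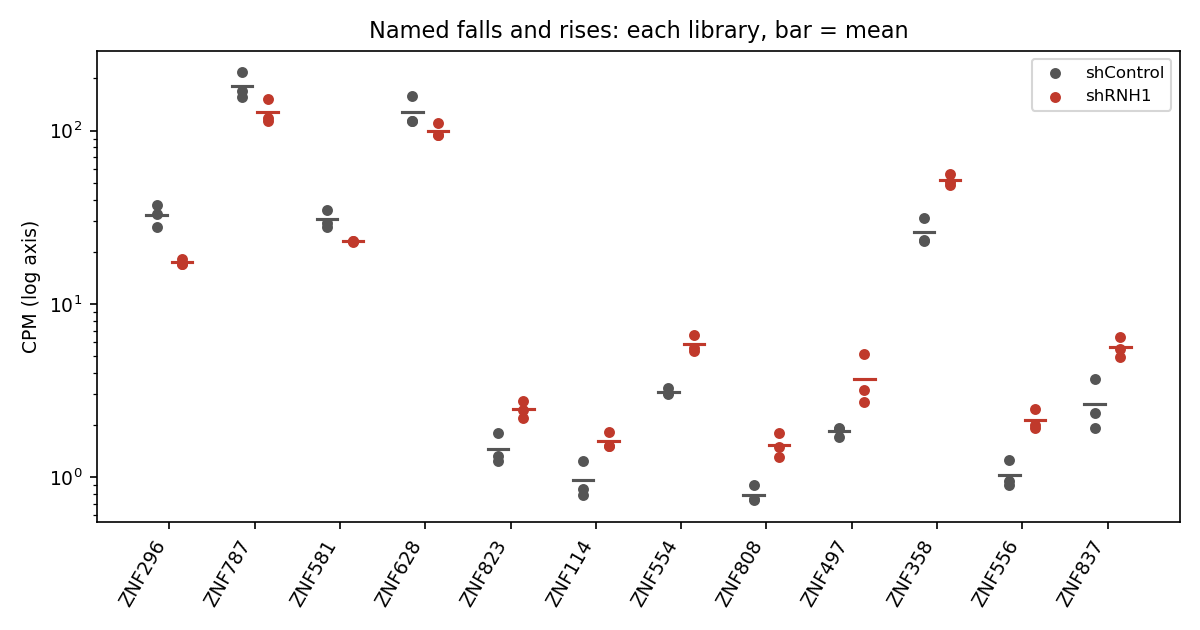
CPM of each library (y axis, log scale) for the 4 named falls and 8 named rises (x axis, ordered by log2 fold change), grey for shControl and red for shRNH1, with a short bar at each mean. Only called genes whose groups did not overlap were named as rises or falls. In all 12 genes the 3 libraries of one group therefore lie wholly above those of the other. Levels run from under 2 CPM in ZNF808 to over 100 CPM in ZNF787.

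All 4 falls were in genes without the KRAB pattern, and the largest was in ZNF296, a gene of 6 fingers (ENSG00000170684; chr19:45071500-45076588, minus strand). It measured 32.9, 27.6 and 37.1 CPM in shControl and 17.0, 17.0 and 18.2 CPM in shRNH1, or 53.6% of the shControl level (46.1% to 62.2% at 95% confidence). The log2 fold change was -0.90 (SE 0.110; edgeR adjusted p = 5.15e-07). All 3 shRNH1 libraries lay close together. They also lay below every shControl library, which was a condition for naming the fall.

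The other 3 falls lie together between 55.48 and 56.67 Mb, a stretch whose tested ZNF genes had a median log2 fold change of -0.0047, below the 0.22 of the family. ZNF787 (ENSG00000142409; chr19:56087366-56121280, minus strand) measured 169, 157 and 218 CPM against 114, 152 and 119 CPM, and fell by 0.50 on the log2 scale (SE 0.116; edgeR adjusted p = 0.00172). ZNF581 (ENSG00000171425; chr19:55635459-55645622, plus strand) measured 29.4, 27.9 and 34.7 CPM against 23.1, 22.8 and 23.2 CPM, and fell by 0.41 (SE 0.103; edgeR adjusted p = 0.00306). ZNF628 (ENSG00000197483; chr19:55476332-55484487, plus strand) measured 113, 113 and 159 CPM against 94.2, 111 and 93.8 CPM, and fell by 0.37 (SE 0.113; edgeR adjusted p = 0.0156). In ZNF787 and ZNF628 the third shControl and the second shRNH1 library were the highest of their groups, and the groups stood apart by a narrow margin. ZNF628 lost its call without shControl replicate 3 (-0.18, edgeR adjusted p = 0.171), shRNH1 replicate 1 (-0.33, 0.110) or shRNH1 replicate 3 (-0.33, 0.0580). With library size alone it measured -0.25 (edgeR adjusted p = 0.0819), and with the level offset -0.29 (edgeR adjusted p = 0.0602).

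This stretch also holds the 5 most abundant ZNF genes of the chromosome per length of exon, none with the KRAB pattern. ZNF787 had 42.1 CPM per kilobase over the 6 libraries, ZNF579 31.03, ZNF628 29.6, ZNF865 25.2 and ZNF580 21.0. They did not move together. ZNF579 (92.1, 89.2 and 128 CPM against 89.4, 123 and 95.9 CPM) had a log2 fold change of -0.0047 (edgeR adjusted p = 0.985). ZNF865 (87.4, 91.0 and 129 CPM against 94.3, 116 and 87.0 CPM) had one of -0.046 (edgeR adjusted p = 0.830). In both genes the third shControl and the second shRNH1 library were again the highest of their groups, and the groups overlapped.

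ZNF580 and ZNF581 overlap on the plus strand, and 529 exon bases of each are shared with the other or with CCDC106, so reads of the shared part could be split between them. ZNF580 (chr19:55635016-55643469) rose, from 43.6, 45.9 and 58.6 CPM to 62.1, 69.1 and 59.3 CPM (log2 fold change 0.36, SE 0.106; edgeR adjusted p = 0.0109), while ZNF581 fell. The call of ZNF580 was lost without shControl replicate 1 (0.28, edgeR adjusted p = 0.101), shControl replicate 2 (0.30, 0.0731) or shRNH1 replicate 2 (0.30, 0.0569), and with the GC and length offset (0.27, 0.0567).

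KRAB and non-KRAB genes differed in level and in the share called lower, while their shares called higher were alike. A KRAB A-box pattern, searched in the first 200 residues of the translated coding transcripts, was found for 209 of the 247 genes. Of 135 tested KRAB genes, 26 were higher and 0 lower by edgeR (4 lower at an unadjusted p under 0.05), with a median log2 fold change of 0.24. DESeq2 and limma-voom also called 0 of them lower. Other settings called 1 to 3 lower, namely 3 with the level offset, 2 without shControl replicate 3, and 1 each with protein-coding genes alone, a mean CPM filter, the GC and length offset, and that offset with the replicate block. Of the 31 tested genes without the pattern, 6 were higher and 4 lower, with a median of 0.14. Higher calls were thus 19.3% of the KRAB genes and 19.4% of the others, against 15.3% of all genes tested. Lower calls were 0% and 12.9%, against 12.3% and 15.8%. With the level offset, 12 KRAB genes were higher and 3 lower (median 0.14), and 5 and 3 of the others (median 0.11). Without shControl replicate 3 the medians were 0.188 and 0.185. The summed level of the KRAB genes was 844, 874 and 798 CPM in shControl and 922, 909 and 907 CPM in shRNH1, and the groups did not overlap. That of the other genes was 1067, 1051 and 1296 CPM against 1055, 1208 and 1049 CPM, and the groups overlapped. KRAB genes on other chromosomes counted 12 higher and 9 lower of 83 tested, with a median of 0.07.

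KRAB and other members also stood at different levels, with a median log2 CPM of 1.72 for tested KRAB genes and 4.65 for the others, against 2.74 over all genes tested. Log2 fold changes were larger at low levels. All tested genes were ordered by level and cut into 5 bins of equal size. From the lowest to the highest bin, the medians of the ZNF genes were 0.75 (14 genes), 0.37 (47), 0.22 (72), 0.093 (25) and -0.074 (8). All genes in the same bins had medians of 0.079, 0.073, 0.11, 0.00054 and -0.097. In each bin the median of the ZNF genes thus stood above that of all genes, but the lowest and highest bins hold few of them, and the lowest includes genes that passed the filter through shRNH1 alone. With an offset that removes the trend of fold change with level, 17 ZNF genes were higher and 6 lower, and their median was 0.14. These bins were chosen after the results had been seen.

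**Figure D4:**
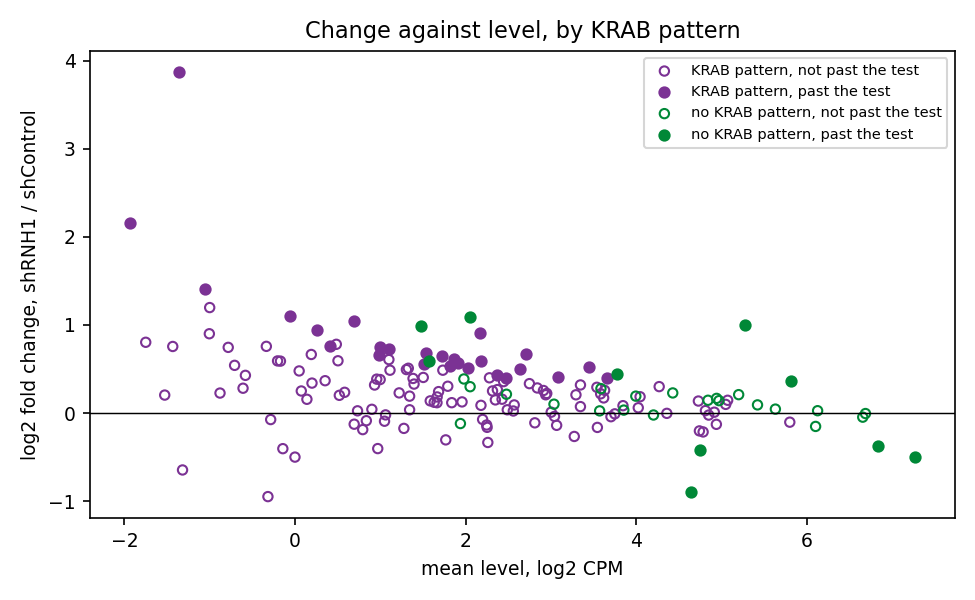
Log2 fold change of shRNH1 over shControl (y axis) against mean log2 CPM (x axis) for the 166 tested genes, purple with and green without the KRAB pattern, filled where the edgeR call was made. KRAB genes crowd at low levels and mostly above 0, and the filled points below 0 are the 4 green falls.

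Sequence features of the genes that were called are given without a test. Transcripts of the tested ZNF genes had a median GC content of 43.0%, against 49.5% over all genes tested. The median was 43.3% for the 32 rises, 69.2% for the 4 falls and 42.6% for those not past the test. The number of C2H2 fingers had a median of 12.5 in the rises, 6.5 in the falls and 12.5 in the genes not past the test, over a range from 0 to 39 in all 247. In the lower 3 of 5 equal bins of genes by transcript GC content, which hold 59, 63 and 22 ZNF genes, their medians were 0.23, 0.22 and 0.23, beside 0.056, 0.00034 and -0.029 for all genes. In the highest bin, with 20 ZNF genes, the medians were 0.12 and 0.036. With the GC and length offset, 25 were higher and 5 lower. Exons of 19 of the 32 rises and 3 of the 4 falls overlap another gene, as do those of 137 of all 247. Among the 71 tested genes with no such overlap, 13 were higher and 1 lower, with a median of 0.18.

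Along the chromosome, 20 groups of neighbours were separated by gaps of over 500 kb. On the short arm 13 of 48 tested genes were higher and 0 lower by edgeR, with 0 lower also at an unadjusted p under 0.05 and by DESeq2 (9 higher) and limma-voom (13 higher). On the long arm 19 were higher and 4 lower of 118. Higher calls were 27.1% of the tested genes on the short arm and 16.1% on the long arm, and lower calls 0% and 3.39%. Over all genes tested, 15.3% were higher and 12.3% lower, so the long arm's share of rises was near that of all genes. The genes named per group in the next paragraphs are the one with the smallest p and, chosen after their values had been seen, the others past the test. Shares of rises per group are given in brackets, to be read beside the 15.3% of all genes tested.

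From 8.51 to 9.79 Mb, 2 of 11 tested genes rose (18.2%). ZNF558, a KRAB gene, went from 8.25, 8.95 and 9.47 CPM to 14.5, 11.6 and 12.3 CPM (log2 fold change 0.52, SE 0.124; edgeR adjusted p = 0.00202), and ZNF559 rose by 0.68. From 11.48 to 12.64 Mb, 4 of 13 rose (30.8%) and the median was 0.37, with 12 of 13 above 0. There ZNF627 went from 3.37, 3.97 and 3.45 CPM to 4.75, 5.44 and 6.12 CPM (0.60, SE 0.165; edgeR adjusted p = 0.00744), with no overlap between groups. It missed the threshold without shRNH1 replicate 3 (0.50, edgeR adjusted p = 0.0524). The others were ZNF823, ZNF700 (0.52) and ZNF791 (0.40).

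The pericentromeric cluster from 19.67 to 24.13 Mb, rich in primate-specific KRAB genes, had 37 members, of which 15 were listed at 0 in all 6 libraries and 16 were tested. ZNF726 (ENSG00000213967; chr19:23914876-23945159, plus strand) changed most, with 0, 4 and 1 counts in shControl and 23, 20 and 25 in shRNH1. Its fitted log2 fold change was 3.87 (SE 0.653; edgeR adjusted p = 5.46e-05), a value that depends on the prior count at such low counts, and it passed the filter through shRNH1 alone. ZNF431 (0.41) and ZNF254 (0.56) also rose, which made 3 of the 16 (18.8%).

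In the long arm's first groups, ZNF181 (0.66) and ZNF792 (0.53) rose among only 3 tested genes from 34.68 to 34.96 Mb (66.7%). From 36.18 to 37.82 Mb, 1 of 14 rose (7.14%). That gene, ZNF585B, had 11, 10 and 7 counts in shControl and 27, 20 and 18 in shRNH1 (1.40, SE 0.453; edgeR adjusted p = 0.0210). Its close paralog ZNF585A overlapped between groups (0.59, edgeR adjusted p = 0.246), and reads of the pair may be split between them. The call of ZNF585B was lost without shControl replicate 2 (edgeR adjusted p = 0.0626), shControl replicate 3 (0.0664) or shRNH1 replicate 1 (0.125), and with DESeq2 (0.0593). The largest negative value of the family, -0.95 in ZNF566 in this group, did not pass (edgeR adjusted p = 0.0574). ZNF566, a KRAB gene whose groups did not overlap, passed as lower in 6 of 17 alternatives, among them the GC and length offset (-1.03, edgeR adjusted p = 0.0371), protein-coding genes alone (-0.96, 0.0409) and the fit without shControl replicate 3 (-1.14, 0.0274).

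From 43.53 to 44.50 Mb, 4 of 19 tested genes rose (21.1%) and the median was 0.43. ZNF221, ZNF222 (0.75) and ZNF284 (1.20) of this group passed the filter through shRNH1 alone, which favours higher values there. ZNF221 had 2, 5 and 2 counts in shControl and 12, 13 and 11 in shRNH1 (2.15, SE 0.599; edgeR adjusted p = 0.00765) and lost its call without shControl replicate 1 (1.95, edgeR adjusted p = 0.0556). ZNF575 (0.59), which lacks the KRAB pattern, ZNF226 (0.57) and ZNF227 (0.43) were the others. From 51.57 to 53.58 Mb, a cluster of 39 genes that all carry the KRAB pattern, 4 of 25 rose. ZNF331 (ENSG00000130844; chr19:53519527-53580269, plus strand), an imprinted KRAB gene, went from 5.39, 5.13 and 4.83 CPM to 7.78, 6.81 and 7.09 CPM (0.50, SE 0.142; edgeR adjusted p = 0.00913), with a wide gap between groups. It missed the threshold without shRNH1 replicate 1 (0.44, edgeR adjusted p = 0.0582) and with the level offset (0.36, 0.0616). ZNF808, ZNF83 (0.64) and ZNF160 (0.40) completed this group.

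Toward the long arm's end, ZNF524 (0.44) rose in the stretch of the 3 falls. From 57.19 to 58.48 Mb, the cluster with the most tested genes, 5 of 40 rose (12.5%, under the 15.3% of all genes) and the median was 0.096. These were ZNF837, ZNF497, ZNF548 (0.67), ZNF419 (0.61) and ZNF132 (0.73). Of the 32 rises, 9 passed under all 18 alternatives in which they could be tested, namely ZNF554, ZNF556, ZNF358, ZNF558, ZNF559, ZNF726, ZNF548, ZNF497 and ZNF837, with ZNF726 testable in 16. The other 23 lost the call under at least 1 alternative and reversed under none. Those that lost it under at least 5 were ZNF114, ZNF580, ZNF700, ZNF431, ZNF254, ZNF181, ZNF792, ZNF575, ZNF226, ZNF227, ZNF160 and ZNF132, 12 in all, each without at least 2 of the libraries in turn, with adjusted p of at most 0.229. Of the 4 falls, ZNF296, ZNF581 and ZNF787 passed under all 18.

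Of 12 members taken for a known function whatever their result, 8 were tested, and ZNF331 and ZNF808 rose, a share near the 27.6% called of all genes tested. ZNF91, which represses SVA and LINE elements, measured 1.98, 1.65 and 1.74 CPM against 2.12, 1.88 and 1.52 CPM (log2 fold change 0.04, SE 0.239; edgeR adjusted p = 0.923), and the groups overlapped. ZNF93, another repressor of LINE elements, was listed at 0 in every library. ZNF274, which brings SETDB1 to the 3′ ends of ZNF genes, measured 25.8, 28.4 and 29.04 CPM against 30.3, 29.1 and 25.5 CPM (0.03, SE 0.101; edgeR adjusted p = 0.873). The 95% interval of its fold was 0.889 to 1.17, and the groups overlapped.

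ZNF473, which takes part in the processing of histone pre-mRNA, had a log2 fold change of 0.17 (edgeR adjusted p = 0.236). ZNF224, a KRAB repressor, had 0.33 (edgeR adjusted p = 0.260), and ZNF146, a protein made almost only of fingers, 0.21 (edgeR adjusted p = 0.161). Of the genes reported as silenced by promoter methylation in carcinomas, ZNF471 and ZNF582 were listed at 0 in all libraries. ZNF382 had 6, 5 and 6 counts in shControl and 2, 7 and 5 in shRNH1 and was not tested. ZNF671 measured 0.616, 0.847 and 1.09 CPM against 1.03, 1.91 and 1.09 CPM (0.67, SE 0.326; edgeR adjusted p = 0.138), with overlapping groups. ZNF146 passed with library size alone and without shRNH1 replicate 2.

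Genes of the machinery that KRAB proteins recruit were called in both directions, at a share that depended on the processing. Of 33 genes of the TRIM28, SETDB1, HUSH, HP1 and DNA methylation systems, all tested, 2 were higher and 5 lower. That is 21.2% called, 6.06% higher and 15.2% lower, against 27.6%, 15.3% and 12.3% of all genes. The median log2 fold change of the 33 was -0.089, against 0.016 for all genes. With DESeq2, 2 of the 33 were higher and 9 lower. DESeq2 called 2502 genes higher and 2502 lower in all, against 3006 and 2418 by edgeR. That is 13.6% of the 36838 genes it fitted, which include low genes that the edgeR filter removed. The 13.6% and the 27.6% are therefore not comparable. TRIM28, the corepressor that KRAB domains bind, measured 1236, 1119 and 1280 CPM in shControl and 1086, 1037 and 1008 CPM in shRNH1. Its groups did not overlap, but its value of -0.22 on the log2 scale (SE 0.0988) missed the threshold (edgeR adjusted p = 0.110). It passed with DESeq2 (adjusted p = 0.0281) and with the GC and length offset (edgeR adjusted p = 0.0181), and with library size alone, which moves all genes upward, it measured -0.10 (edgeR adjusted p = 0.304). With the level offset it measured -0.015 (edgeR adjusted p = 0.932). SETDB1 measured 51.4, 52.5 and 48.6 CPM against 52.3, 41.1 and 49.9 CPM, a log2 fold change of -0.09 (edgeR adjusted p = 0.552).

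The called members belong to different branches of this machinery. The HP1 gamma gene CBX3 rose from 50.1, 48.3 and 48.1 CPM to 68.3, 59.6 and 72.4 CPM (0.45, SE 0.0947; edgeR adjusted p = 6.60e-04). ATF7IP2, a relative of the SETDB1 partner ATF7IP, rose by 0.76 (SE 0.171; edgeR adjusted p = 0.00122). The methyl-CpG binding protein gene MBD1 fell from 80.5, 83.1 and 85.6 CPM to 54.1, 60.9 and 57.9 CPM (-0.53, SE 0.0908; edgeR adjusted p = 6.77e-05). The histone methyltransferase gene SUV39H1 (-0.39), PPHLN1 of the HUSH complex (-0.35) and the HP1 beta gene CBX1 (-0.30) also fell, with edgeR adjusted p of 0.00172, 0.00561 and 0.0227. UHRF1, outside the rule and named to complete the 5, measured -0.27 (edgeR adjusted p = 0.0459) with overlapping groups.

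CBX3, ATF7IP2, MBD1 and SUV39H1 passed under all 18 alternatives. CBX1 lost its call without shControl replicate 1 (edgeR adjusted p = 0.134), shControl replicate 2 (0.08995), shRNH1 replicate 1 (0.0544) or shRNH1 replicate 2 (0.0855). UHRF1 lost its call without shControl replicate 1 (edgeR adjusted p = 0.134), shControl replicate 3 (0.157), shRNH1 replicate 1 (0.159) or shRNH1 replicate 3 (0.171). Leaving out the first library of either group left 3 lower. With library size alone the list had 5 higher and 2 lower, MBD1 and SUV39H1, and with DESeq2 9 lower.

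**Figure D5:**
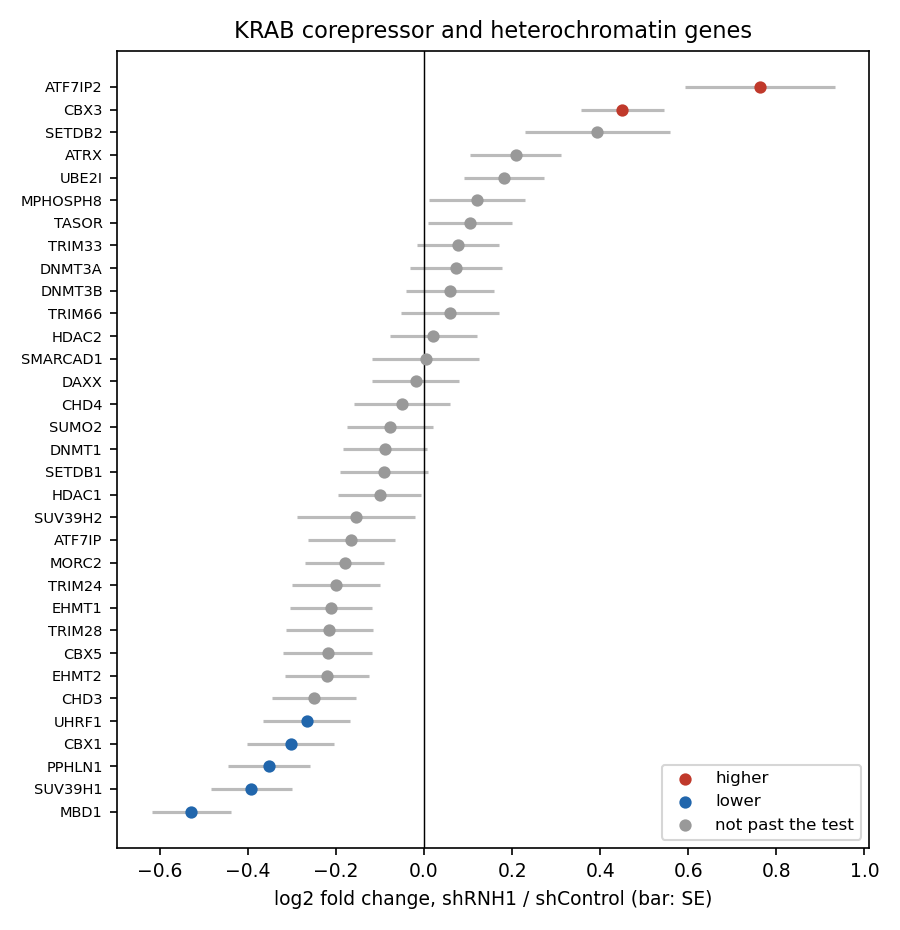
Log2 fold change of shRNH1 over shControl (x axis) with its standard error (bars) for the 33 corepressor and heterochromatin genes (y axis, ordered by value), coloured by edgeR call. ATF7IP2 and CBX3 stand apart on the right at 0.76 and 0.45, and 5 genes from UHRF1 to MBD1 on the left lie between -0.27 and -0.53.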

How the data were processed

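Poly(A) RNA of 6 KYSE510 libraries was sequenced. The authors deposited raw counts per gene, with no normalisation. The submitters' processing notes name HISAT2, StringTie, DESeq2 and the GRCh38 build. The sources used here do not state the read counter, its strand setting or the annotation release. Each of the 6 count columns matched 1 sample's description.

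Symbols were found for all 62700 IDs, and 58207 IDs were in GENCODE 29, which gave positions, exons, transcripts and translated proteins. The test was edgeR 4.0.16 (R 4.3.3): TMM, filterByExpr by group, a quasi-likelihood fit of 3 against 3 libraries without covariates, and Benjamini-Hochberg adjustment over 19682 genes at 0.05. It was tested on simulated data. Standard errors came from the F statistic. The 95% intervals of folds cover the spread between libraries and used the normal quantile, which makes them somewhat narrow with 3 libraries per group. Library totals limit the precision most for genes under 1 CPM.

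The members, lists and tests were chosen with earlier results of these data known. The naming rule took the 8 largest rises and falls among called genes whose groups did not overlap, from a mean log2 CPM of 0 upward, the 5 most abundant per kilobase, 12 genes of known function, and the smallest p in each neighbour group with at least 8 tested genes. From the corepressor list it took TRIM28, SETDB1 and the 6 called members with the smallest p, and from zinc finger genes of other symbols 4. C2H2 fingers were counted as C, 2 or 4 residues, C, 12 residues, H, 3 to 5 residues, H. The KRAB pattern was widened in steps on the proteins' sequences, once after the fits had run, and misses degenerate boxes. Alternatives were DESeq2 1.42.0, its size factors in edgeR, library size alone, limma-voom (limma 3.58.1), other filters, a replicate block, offsets for GC content and length or for level (splines of 5 degrees of freedom, MASS 7.3.60.0.1), protein-coding genes alone, members without exon overlap, and each library left out. The replicate block with the GC and length offset was added after seeing the data.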

Additional observations from a re-analysis of the deposited data

How the results depend on the processing

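The count of higher genes, 32, was 19 with DESeq2 (4 lower), 17 with the offset for expression level (6 lower) and 13 of 71 among genes without overlapping exons (1 lower). The median of 0.22 was 0.32 with library size alone and 0.14 with the level offset. Leaving out 1 library at a time gave 17 to 28 higher, 3 to 5 lower and a median of 0.18 to 0.25; the 17 came without shRNH1 replicate 1, which shared 16 with the 32, and the 19 of DESeq2 were all among them. In the corepressor list, 2 higher and 5 lower became 5 and 2 with library size alone, and 9 lower with DESeq2, 8 with the GC and length offset and 3 with the replicate block. Leaving out libraries there gave 2 to 3 higher and 3 to 5 lower. RNASEH1 lay between -2.23 and -2.04 and passed under all 18 alternatives, and RNH1 lay between -0.30 and -0.032 and passed under none. Among the single genes recomputed, no call changed direction, while the balance of the corepressor list turned with library size alone. Correlations of deviations between libraries with the same number were 0.045, 0.056 and -0.049, and not every library correlated best with its own number. These values gave no sign that the numbers pair the samples. With 3 libraries per group they cannot exclude a pairing, and the labels do not state one. The replicate block gave 35 higher, 4 lower and a median of 0.22 for the ZNF genes, and with the GC and length offset 25, 5 and 0.17. Replicates differed by more than sampling noise (chi-square of 5.90 to 18.5 per gene). Counting error is largest in genes under 1 CPM, and 81 genes could not be tested.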

Other observations

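Chromosome 19 also carries zinc finger genes under other symbols, and 23 protein-coding ones were followed. Of the 11 tested, 3 were higher and 2 lower, with a median log2 fold change of -0.00031. That is 45.5% called, against 27.6% of all genes and 34.8% of protein-coding genes. ZBTB32, a repressor of the BTB zinc finger family, measured 7.09, 6.94 and 6.27 CPM in shControl and 13.9, 16.2 and 12.4 CPM in shRNH1 (1.07, SE 0.128; edgeR adjusted p = 4.02e-07). KLF16, a Krüppel-like factor, measured 252, 242 and 311 CPM against 188, 203 and 177 CPM (-0.50, SE 0.102; edgeR adjusted p = 4.40e-04). The groups did not overlap in either gene. ZFP14, a KRAB gene, had 15, 12 and 3 counts against 32, 31 and 27 (1.78, SE 0.458; edgeR adjusted p = 0.00424). ZFP36, which encodes an RNA-binding protein that destabilises AU-rich mRNAs, rose by 0.36 (SE 0.0985; edgeR adjusted p = 0.00654). ZBTB7A, outside the naming rule and chosen after its values had been seen, measured -0.31 (edgeR adjusted p = 0.0324) with overlapping groups, and lost its call without shControl replicate 3 (-0.19, edgeR adjusted p = 0.154), shRNH1 replicate 1 (-0.27, 0.160) or shRNH1 replicate 3 (-0.25, 0.171).

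R-loops are favoured where the displaced strand is rich in G, which is measured by GC skew, the difference of G and C over their sum. In the 50 bases after the RefSeq start, the median skew was 0.056 over all 27305 promoters, not filtered by gene type. It was 0.067 over the 216 matched ZNF genes. By call it was 0.012 for 28 higher genes, -0.21 for 4 lower genes and 0.086 for 119 not past the test. These are descriptions without a test, since the classes were made from the outcome.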
